A study of Rattus norvegicus with 8 samples.

Results

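The Rab GTPases and the genes of membrane traffic that work with them were read in 2 populations of oligodendrocyte-lineage cells from the brain of newborn rats. Members were chosen by gene name alone, from probe sets (groups of probes on an array that report the same transcript) carrying a single symbol: all genes named Rab followed by a number, and all numbered Rabgap, Rabep, Rabif, Rabac, Rab11fip, Vps, Snx and Exoc genes. The rule found 142 of the 14217 genes measured. Of these, 56 are Rab GTPases and 86 are named here as partners, which include effectors of Rab GTPases such as the Rab11 family interacting proteins, the vacuolar protein sorting (Vps) genes, the sorting nexins (Snx) and the exocyst (Exoc).

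Rab GTPases are small switches on the membranes of the cell. Bound to GTP, each holds effector proteins at a particular organelle, where they bud, carry, tether or recycle vesicles; exchange factors load the GTP and GTPase-activating proteins end the signal. Oligodendrocytes use this machinery heavily, since the membrane lipids and proteins of myelin have to be delivered to the growing sheath, and since major myelin proteins such as the proteolipid protein pass through endosomes on their way to the cell surface.

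A2B5 is a ganglioside epitope of glial progenitors, and galactocerebroside (GalC) is a lipid of oligodendrocytes and of myelin. Cells that stained singly for A2B5, labelled as oligodendrocyte progenitors, and cells that stained singly for GalC, labelled as oligodendrocytes, were sorted by flow cytometry from whole brain of rats at postnatal day 7. No treatment or genetic change was named for either population, and strain and sex are not given in the sources used here. Each population had 4 biological replicates, each made from a pooled litter of 10 pups and read on 1 single-colour Affymetrix array, so that 8 arrays were compared and their small number limits the precision.

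Each deposited value is a probe set's signal divided by its median over the 8 arrays. A ratio of 1 is therefore the middle of the 8 arrays for that probe set. Differences between arrays are kept, but how bright a gene was is lost, so that no gene is compared in level with another and signal over background cannot be judged. Differences are given as log2 fold change, GalC+ minus A2B5+, with its standard error (SE) and a Benjamini-Hochberg adjusted p from limma over all 14217 genes, with a threshold of 0.05; the words higher, lower, rose and fell are used for differences past it. In RNA from a sorted population, a smaller share of cells that hold a transcript and less of it in each cell cannot be told apart.

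The labels were first set against marker genes of each cell type. Of 11 myelin and oligodendrocyte markers measured, 11 were higher in GalC+ (median log2 fold change 4.01), and of 8 progenitor markers 3 were lower, Pdgfra among them, while 5 did not pass, including Cspg4 and Olig2. Markers of other cells differed too. Of 18 macrophage and microglia markers 13 were higher in GalC+ and none lower (median 0.88), led by Cd163 (5.41) and Mrc1 (4.12), whereas the microglial genes Cx3cr1, P2ry12 and Tmem119 did not pass. Of 10 mural cell markers 9 were higher (median 1.27), and of 17 neuron markers 11 were lower (median -1.57). None of 9 endothelial and none of 10 astrocyte markers passed. Because the ratios carry no level, it cannot be said which of these markers were near zero in a population.

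Among the 56 Rab GTPases, 17 were higher and 7 lower in GalC+, and 32 did not pass. The 24 that differed are 42.9% of the family, where 35.7% of all genes passed; 30.4% of the family was higher against 18.2% of all genes, and 12.5% lower against 17.5%. The median log2 fold change of the 56 genes was 0.16, against 0.04 over all genes, and single members ran from -1.30 (Rab6b) to 1.70 (Rab33a). In 24 of the 56 (42.9%) all 4 arrays of one population lay above all 4 of the other, as they did in 36.2% of all genes. The Rab GTPases that did not pass were not all well bounded: in 20 of the 32 the 95% interval of the log2 fold change lay within 0.5 of zero on both sides.

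**Figure D1:**
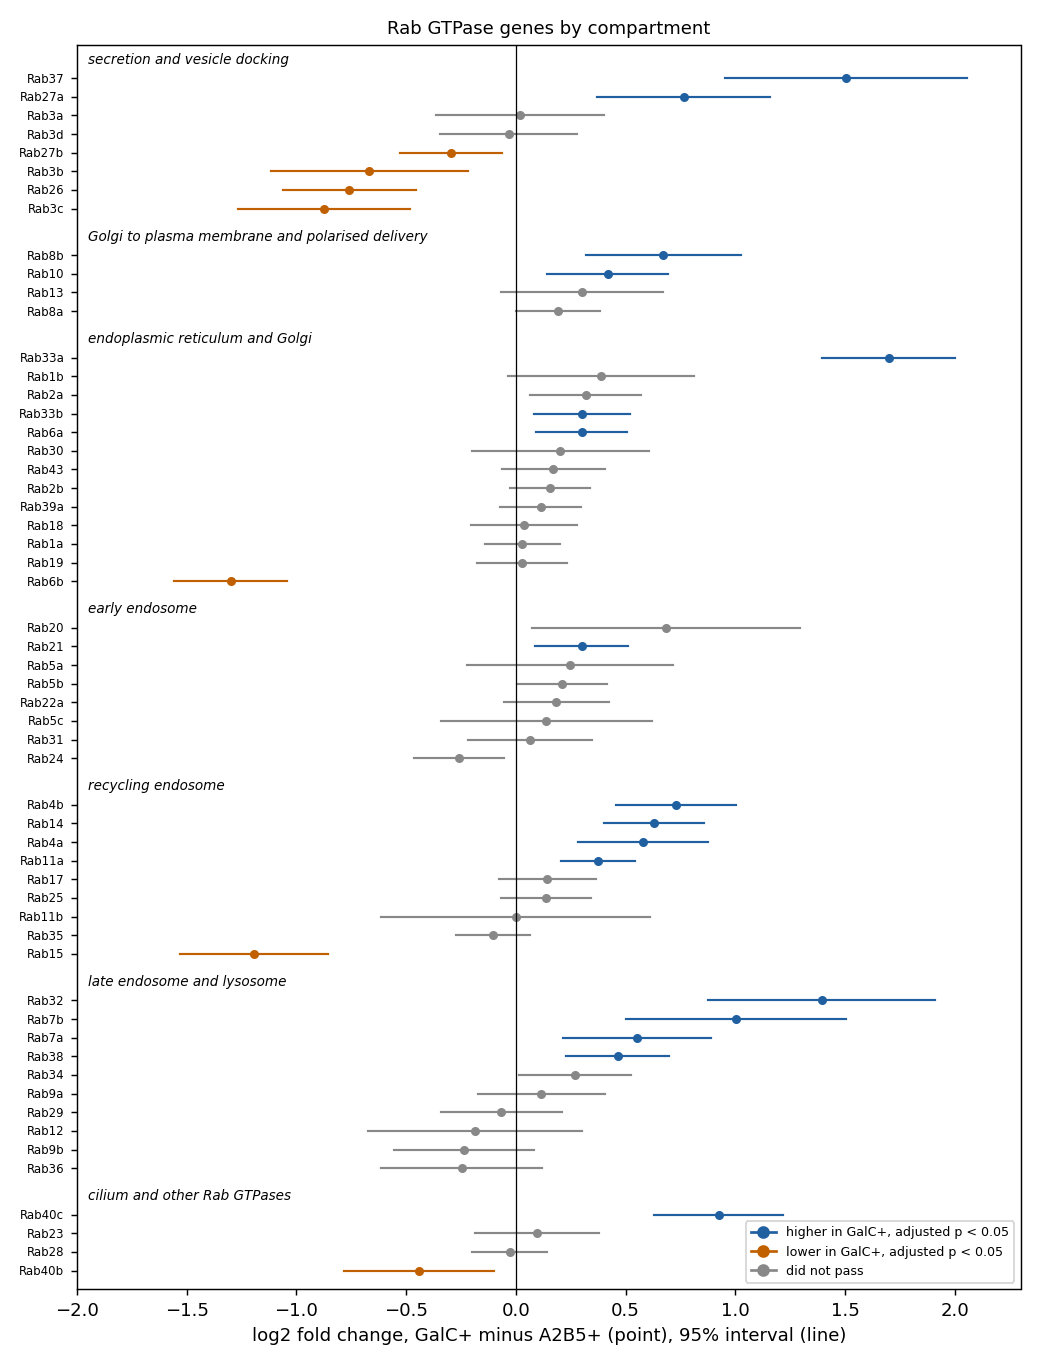
Log2 fold change (GalC+ minus A2B5+, horizontal axis) of the 56 Rab GTPases, grouped by the step of traffic each serves. Points are limma estimates from 4 and 4 arrays, and bars are 95% intervals. Blue genes were higher and orange genes lower in GalC+ past the threshold, and grey genes did not pass. Genes past the threshold lie on both sides of zero, from Rab6b at -1.30 to Rab33a at 1.70, with 17 to the right and 7 to the left.

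Rab GTPases of secretion went both ways. Of 8 measured, 4 were lower in GalC+ (17.5% of all genes were), 2 were higher (18.2% of all genes) and 2 did not pass, with a median log2 fold change of -0.16. Of the 4 falls, those of Rab3c and Rab26 passed with each array left out. The lower genes were Rab3b and Rab3c, which sit on synaptic vesicles and secretory granules, Rab26, a GTPase of secretory granules, and Rab27b, which acts in granule and exosome release. The ratio of Rab3c was 1.14, 2.00, 1.41 and 1.22 on A2B5+ arrays 1 to 4 and 0.629, 0.840, 0.762 and 0.861 on GalC+ arrays 1 to 4. Every A2B5+ array was above every GalC+ array, with A2B5+ replicate 2 well above the rest. The gene was 1.83-fold lower in GalC+ (-0.87 ± 0.18 SE, adjusted p = 0.00375).

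Rab26 read 1.12, 1.35, 1.28 and 1.22 on the A2B5+ arrays and 0.771, 0.557, 0.883 and 0.760 on the GalC+ arrays. The populations did not overlap, and the fold was 1.69 (-0.76 ± 0.14 SE, adjusted p = 0.00208). For Rab3b the ratios were 1.12, 2.01, 1.54 and 0.995 in A2B5+ and 0.774, 0.810, 1.00 and 0.862 in GalC+. Here A2B5+ replicate 4 and GalC+ replicate 3 crossed, and A2B5+ replicate 2 was again the highest; the fold was 1.59 (-0.67 ± 0.20 SE, adjusted p = 0.0271). With each array left out in turn, Rab3b missed the threshold in 4 of 8 fits. Rab27b, 1.23-fold lower (-0.30 ± 0.10 SE, adjusted p = 0.0486), overlapped between populations, and its second probe set showed -0.12.

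Many of the genes that fell are also abundant in neurons, whose markers fell in the same arrays: the mean log2 ratio of the neuron markers was 0.30 to 0.63 on the A2B5+ arrays and -1.23 to -0.41 on the GalC+ arrays. The part of neurons in the fall of Rab3b, Rab3c, Rab6b, Rab15 and Rab26 was not tested. Rab3a, the best known synaptic member, did not pass (0.02, 95% interval -0.37 to 0.40), and neither did Rab3d (-0.03, interval -0.34 to 0.28).

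The secretory GTPases that rose were Rab37 and Rab27a. Rab37, a GTPase of secretory granules in mast cells, read 0.541, 0.542, 0.692 and 0.541 in A2B5+ and 1.37, 1.31, 2.98 and 1.33 in GalC+. The arrays of a population lay close together except replicate 3, which was the highest in both, and the populations did not overlap. The fold was 2.84 (1.50 ± 0.25 SE, adjusted p = 0.00128), and the log2 fold change lay between 1.21 and 1.61 when each array was left out in turn. Rab27a, which docks melanosomes and cytotoxic granules at the plasma membrane, read 0.828, 0.523, 0.954 and 0.655 in A2B5+ and 1.24, 1.38, 1.26 and 1.05 in GalC+. All GalC+ arrays were above all A2B5+ arrays, which themselves were spread widely. Rab27a was 1.70-fold higher (0.77 ± 0.18 SE, adjusted p = 0.00755), and the mean of its 3 probe sets was 0.38.

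**Figure D2:**
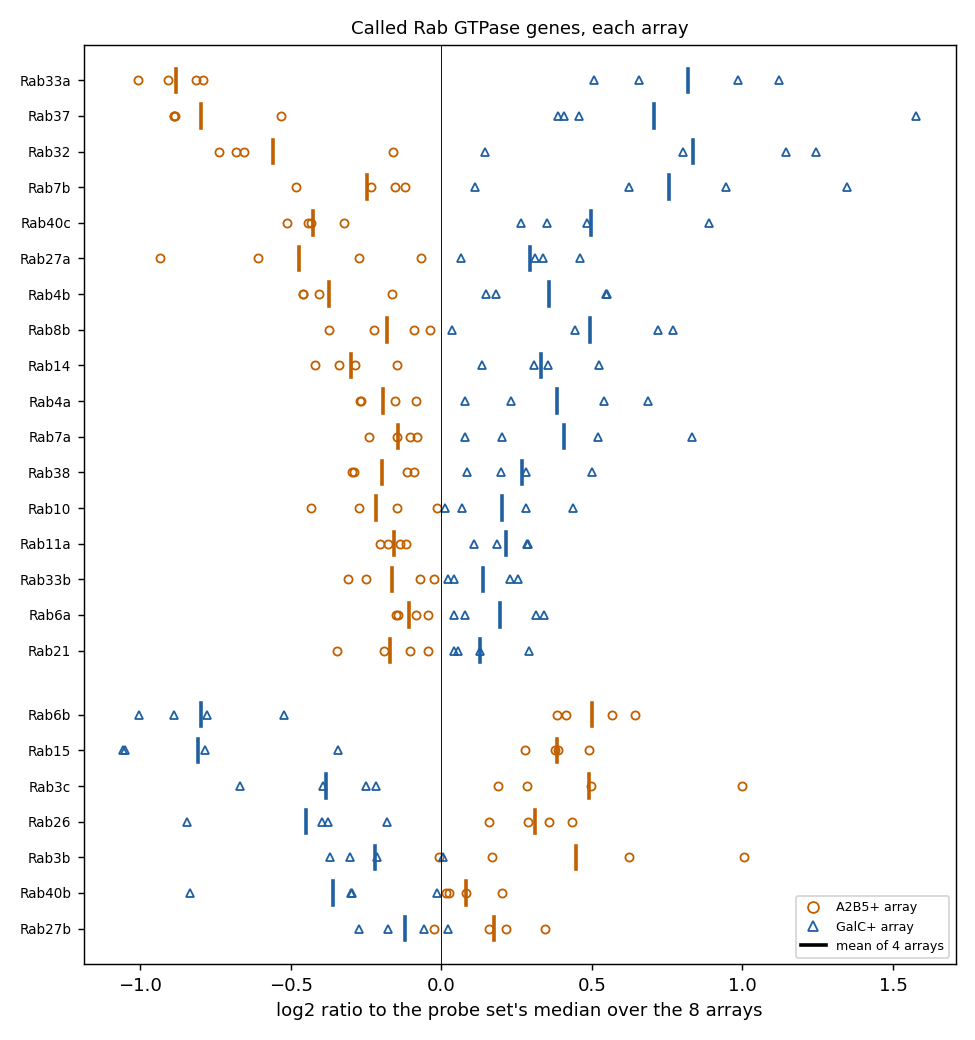
Log2 ratio on each array (horizontal axis) for the 24 Rab GTPases past the threshold; circles are A2B5+ arrays, triangles are GalC+ arrays and bars are means of 4 arrays. The populations are apart for all 17 genes that rose, and they overlap for Rab3b and Rab27b among the 7 that fell. The genes shown were chosen for passing on these same arrays, so that gaps between the populations add no support. Over all genes, passed or not, the populations were apart in 36.2%.

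In the Golgi and the endoplasmic reticulum, 13 Rab GTPases were measured, of which 3 rose and 1 fell (median 0.17). The 30.8% that passed was near the 35.7% of all genes (23.1% higher against 18.2%, 7.69% lower against 17.5%). Rab33a, a Golgi-associated GTPase whose close relative Rab33b binds the autophagy protein Atg16l1, had the largest rise of the family. Its ratios were 0.497, 0.568, 0.533 and 0.578 on the A2B5+ arrays and 1.42, 2.18, 1.98 and 1.58 on the GalC+ arrays. The A2B5+ arrays were nearly alike, and the lowest GalC+ array was far above them. Rab33a was 3.25-fold higher in GalC+ (1.70 ± 0.14 SE, adjusted p = 2.45e-05), and Rab33b rose less (1.23-fold, 0.30 ± 0.10 SE, adjusted p = 0.0364). Rab1a, which carries vesicles from the endoplasmic reticulum to the Golgi, did not pass (0.03, 95% interval -0.14 to 0.20). Further probe sets are shared by Rab1a and Rab1b and were not used.

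The paralogs Rab6a and Rab6b, which direct traffic within and out of the Golgi, went in opposite directions. Rab6a is made in most cells and Rab6b mainly in the nervous system. The ratios of Rab6b were 1.33, 1.56, 1.30 and 1.48 in A2B5+ and 0.583, 0.498, 0.541 and 0.696 in GalC+. The populations were far apart, and the fold, 2.46 lower in GalC+ (-1.30 ± 0.12 SE, adjusted p = 4.80e-05), was the largest fall of the family; its other probe set fell too (-0.72). Rab6a read 0.900, 0.944, 0.905 and 0.970 in A2B5+ and 1.03, 1.24, 1.27 and 1.05 in GalC+. The gap between the highest A2B5+ and the lowest GalC+ array was narrow. Rab6a was 1.23-fold higher (0.30 ± 0.09 SE, adjusted p = 0.0294), its other probe set showed 0.04, and it missed the threshold in 6 of 8 fits with 1 array removed.

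The promoters of this divergent pair, and of Rab15, which had the next largest fall, are shown so that the sequence before the start of the divergent genes can be set side by side. They come from the RefSeq promoter table (rat assembly GRCr8), in which 45 of the 56 Rab GTPases were matched, Rab33a and Rab37 not among them. Each runs 5′ to 3′ on the strand of the gene from 250 bases before to 50 bases after the annotated start, 300 bases in all. Rab6a lies at chr1:164369783-164370082 (+ strand), Rab6b at chr8:112573973-112574272 (+ strand) and Rab15 at chr6:101257034-101257333 (- strand). Capitals mark matches, on either strand, to 8 words that were searched: the GC box GGGCGG, the CCAAT box CCAAT, the TATA word TATAAA, the E-boxes CACGTG and CAGCTG, the SOX words AACAAAG and AACAATG, and CTGGCAC, a word bound by the myelin regulator Myrf.
Rab6a: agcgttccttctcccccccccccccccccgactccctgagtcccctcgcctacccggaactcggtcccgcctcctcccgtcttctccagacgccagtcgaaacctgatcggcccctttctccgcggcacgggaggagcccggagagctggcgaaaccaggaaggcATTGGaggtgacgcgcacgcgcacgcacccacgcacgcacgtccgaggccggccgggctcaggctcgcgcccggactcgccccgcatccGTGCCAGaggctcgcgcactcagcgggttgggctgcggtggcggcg
Rab6b: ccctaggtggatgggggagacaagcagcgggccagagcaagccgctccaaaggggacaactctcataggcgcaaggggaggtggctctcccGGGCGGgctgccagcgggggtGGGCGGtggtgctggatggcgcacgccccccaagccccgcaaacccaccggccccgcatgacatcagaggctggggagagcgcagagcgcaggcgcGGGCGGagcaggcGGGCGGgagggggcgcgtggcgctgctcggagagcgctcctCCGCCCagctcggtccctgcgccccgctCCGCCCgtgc
Rab15: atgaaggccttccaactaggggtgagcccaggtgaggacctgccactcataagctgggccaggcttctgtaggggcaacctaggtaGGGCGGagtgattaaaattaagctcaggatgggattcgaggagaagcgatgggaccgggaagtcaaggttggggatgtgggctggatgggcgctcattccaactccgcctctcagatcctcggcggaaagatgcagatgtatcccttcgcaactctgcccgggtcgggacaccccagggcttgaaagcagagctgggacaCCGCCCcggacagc

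The promoters of the divergent pair were both rich in G and C, at 72.7% for Rab6a and 74.7% for Rab6b, and that of Rab15 was at 59.3%. That of Rab6b held 6 GC boxes and no other word, and that of Rab15 held 2 GC boxes. That of Rab6a held 0 GC boxes, 1 CCAAT box at position -85 from the start and 1 CTGGCAC at position 4. The GC box was in 12 of 14 promoters of risen Rab GTPases and in 5 of 6 of those that fell. It was in 36 of 45 of the whole family (80.0%) and in 41.8% of 21851 promoters of protein-coding genes of the same length. CTGGCAC was in 3 of the 45 (6.67%) and in 4.77% of those of protein-coding genes. The TATA word was in 0 of 45, against 13.0% of protein-coding genes. The CCAAT box was as frequent in the family (37.8%) as elsewhere (38.0%). Of the remaining words, CACGTG was in 8.89% of the family and 7.02% of protein-coding genes, CAGCTG in 9 of 45 and 15.2%, AACAAAG in 2.22% and 4.96%, and AACAATG in 0.00% and 3.38%. These counts describe letters in a fixed window. The median share of G and C was 63.7% in the 45 promoters of the family, against 51.7% in all 33469 promoters of this length. The part of this base content in the counts of the GC box and the TATA word was not tested.

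Delivery from the Golgi to the plasma membrane had 4 members, Rab8a, Rab8b, Rab10 and Rab13, of which 2 rose and 0 fell (median 0.36). Of all genes 18.2% rose and 17.5% fell. Rab8b, which acts in polarised delivery, was 1.59-fold higher (0.67 ± 0.16 SE, adjusted p = 0.00862), and all 3 of its probe sets were called higher (0.67, 0.47 and 0.49). Rab10, which brings exocytic vesicles to the membrane, was 1.34-fold higher (0.42 ± 0.12 SE, adjusted p = 0.0246). Rab8a (0.19, 95% interval 0.00 to 0.38) and Rab13 (0.30, interval -0.07 to 0.67) did not pass.

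Of 9 Rab GTPases of recycling endosomes, 4 rose, Rab4b, Rab14, Rab4a and Rab11a, 1 fell, Rab15, and 4 did not pass (median 0.14), where 18.2% of all genes rose and 17.5% fell. Rab4a and Rab4b return cargo quickly from early endosomes to the surface; they were 1.49-fold (0.58 ± 0.13 SE, adjusted p = 0.00745) and 1.66-fold higher (0.73 ± 0.12 SE, adjusted p = 0.00146). Rab14, which moves cargo between endosomes and the Golgi, was 1.55-fold higher (0.63 ± 0.10 SE, adjusted p = 0.00117), with a mean of 0.33 over its 5 probe sets. Rab11a, which governs the slow recycling route, was 1.30-fold higher (0.38 ± 0.08 SE, adjusted p = 0.00394), and with the mean of its 2 probe sets its adjusted p was 0.0510. Its paralog Rab11b could not be judged (0.00, 95% interval -0.61 to 0.61), nor did Rab35 pass (-0.10, interval -0.27 to 0.06).

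Rab15, which slows recycling from early endosomes and is found mainly in neural tissue, read 1.31, 1.41, 1.21 and 1.30 in A2B5+ and 0.580, 0.483, 0.481 and 0.788 in GalC+. The populations were far apart, with GalC+ replicate 4 nearest to the A2B5+ arrays. The fold was 2.28 (-1.19 ± 0.15 SE, adjusted p = 3.47e-04). This fall came from 1 of 3 probe sets: the others showed 0.07 and 0.06, and the mean of the 3 was -0.36.

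In early endosomes only 1 of 8 members passed, where 35.7% of all genes did. It was Rab21, which carries integrins (0.30 ± 0.10 SE, adjusted p = 0.0332). With the replicate number as a block its adjusted p was 0.0556. None of Rab5a (0.25, 95% interval -0.22 to 0.72), Rab5b (0.21, interval 0.00 to 0.42) and Rab5c (0.14, interval -0.34 to 0.62), the core GTPases of early endosomes, passed, although the other probe set of Rab5a (0.32) was called higher with p adjusted over all probe sets. Rab20, a GTPase of endosomes and phagosomes, had a larger value (0.68) that missed the threshold (adjusted p = 0.0777) but passed with the replicate number as a block (adjusted p = 0.00270), with ratios of 0.580, 0.714, 1.31 and 0.689 in A2B5+ and 0.859, 1.52, 1.69 and 1.14 in GalC+. A2B5+ replicate 3 overlapped the GalC+ arrays.

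On late endosomes and lysosomes, 4 of 10 members rose and 0 fell (median 0.19), where 18.2% of all genes rose and 17.5% fell. Rab32, which with Rab38 builds lysosome-related organelles such as melanosomes, read 0.635, 0.624, 0.894 and 0.600 in A2B5+ and 1.75, 2.37, 2.21 and 1.11 in GalC+. The populations did not overlap, although A2B5+ replicate 3 stood above the other A2B5+ arrays and GalC+ replicate 4 below the other GalC+ arrays. Rab32 was 2.63-fold higher (1.39 ± 0.23 SE, adjusted p = 0.00135), and Rab38 was 1.38-fold higher (0.46 ± 0.10 SE, adjusted p = 0.00692).

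Rab7b, which returns cargo from late endosomes to the Golgi, read 0.715, 0.920, 0.851 and 0.899 in A2B5+ and 1.54, 1.93, 2.54 and 1.08 in GalC+. All GalC+ arrays were higher, GalC+ replicate 4 by a small margin. The gene was 2.01-fold higher (1.00 ± 0.22 SE, adjusted p = 0.00657). Rab7a, which drives fusion of late endosomes with lysosomes, was 1.47-fold higher (0.55 ± 0.15 SE, adjusted p = 0.0173). Rab32 and Rab7b are also expressed by macrophages. The mean log2 ratio of the 18 macrophage and microglia markers was -1.19 to -0.34 on the A2B5+ arrays, with replicate 3 the highest, and 0.15 to 0.65 on the GalC+ arrays, with replicate 4 the lowest. The part of those cells in the rise of Rab32, Rab7b and Rab37 was not tested.

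The last group held GTPases of the cilium and others, with 1 of 4 higher and 1 lower (median 0.03), against 18.2% and 17.5% of all genes. The SOCS-box GTPases Rab40b and Rab40c, which link to ubiquitin ligases, were the pair that passed and went in opposite directions. Rab40c read 0.736, 0.8, 0.701 and 0.741 in A2B5+ and 1.27, 1.85, 1.2 and 1.40 in GalC+. The A2B5+ arrays were tight and the populations well apart, with a fold of 1.90 (0.92 ± 0.13 SE, adjusted p = 6.14e-04). Rab40b read 1.06, 1.15, 1.01 and 1.02 in A2B5+ and 0.813, 0.814, 0.990 and 0.561 in GalC+. GalC+ replicate 3 came close to the A2B5+ arrays. The fold of 1.36 (-0.44 ± 0.15 SE, adjusted p = 0.0477) barely passed, its other probe set showed 0.17, and Rab40b missed the threshold in 7 of 8 fits with 1 array removed and after quantile normalization (adjusted p = 0.0765). Rab23, which acts at the cilium, did not pass (0.10, 95% interval -0.19 to 0.38).

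The 86 partners had 20 members higher in GalC+ and 9 lower. The 33.7% that passed was near the 35.7% of all genes. Of the partners 23.3% were higher, against 18.2% of all genes, and 10.5% lower, against 17.5%. The median was 0.14, against 0.04 over all genes. In 34 (39.5%) the populations did not overlap, near the 36.2% of all genes. The log2 fold change ran from -1.16 (Rab11fip4) to 1.34 (Snx33), and of the 57 that did not pass, 43 had an interval within 0.5 of zero. The share that passed varied widely between families. It was 8 of 11 among sorting nexins with a BAR domain. Among genes listed with the HOPS and CORVET tethers it was 0 of 8, or 1 of 8 with probe sets averaged.

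**Figure D3:**
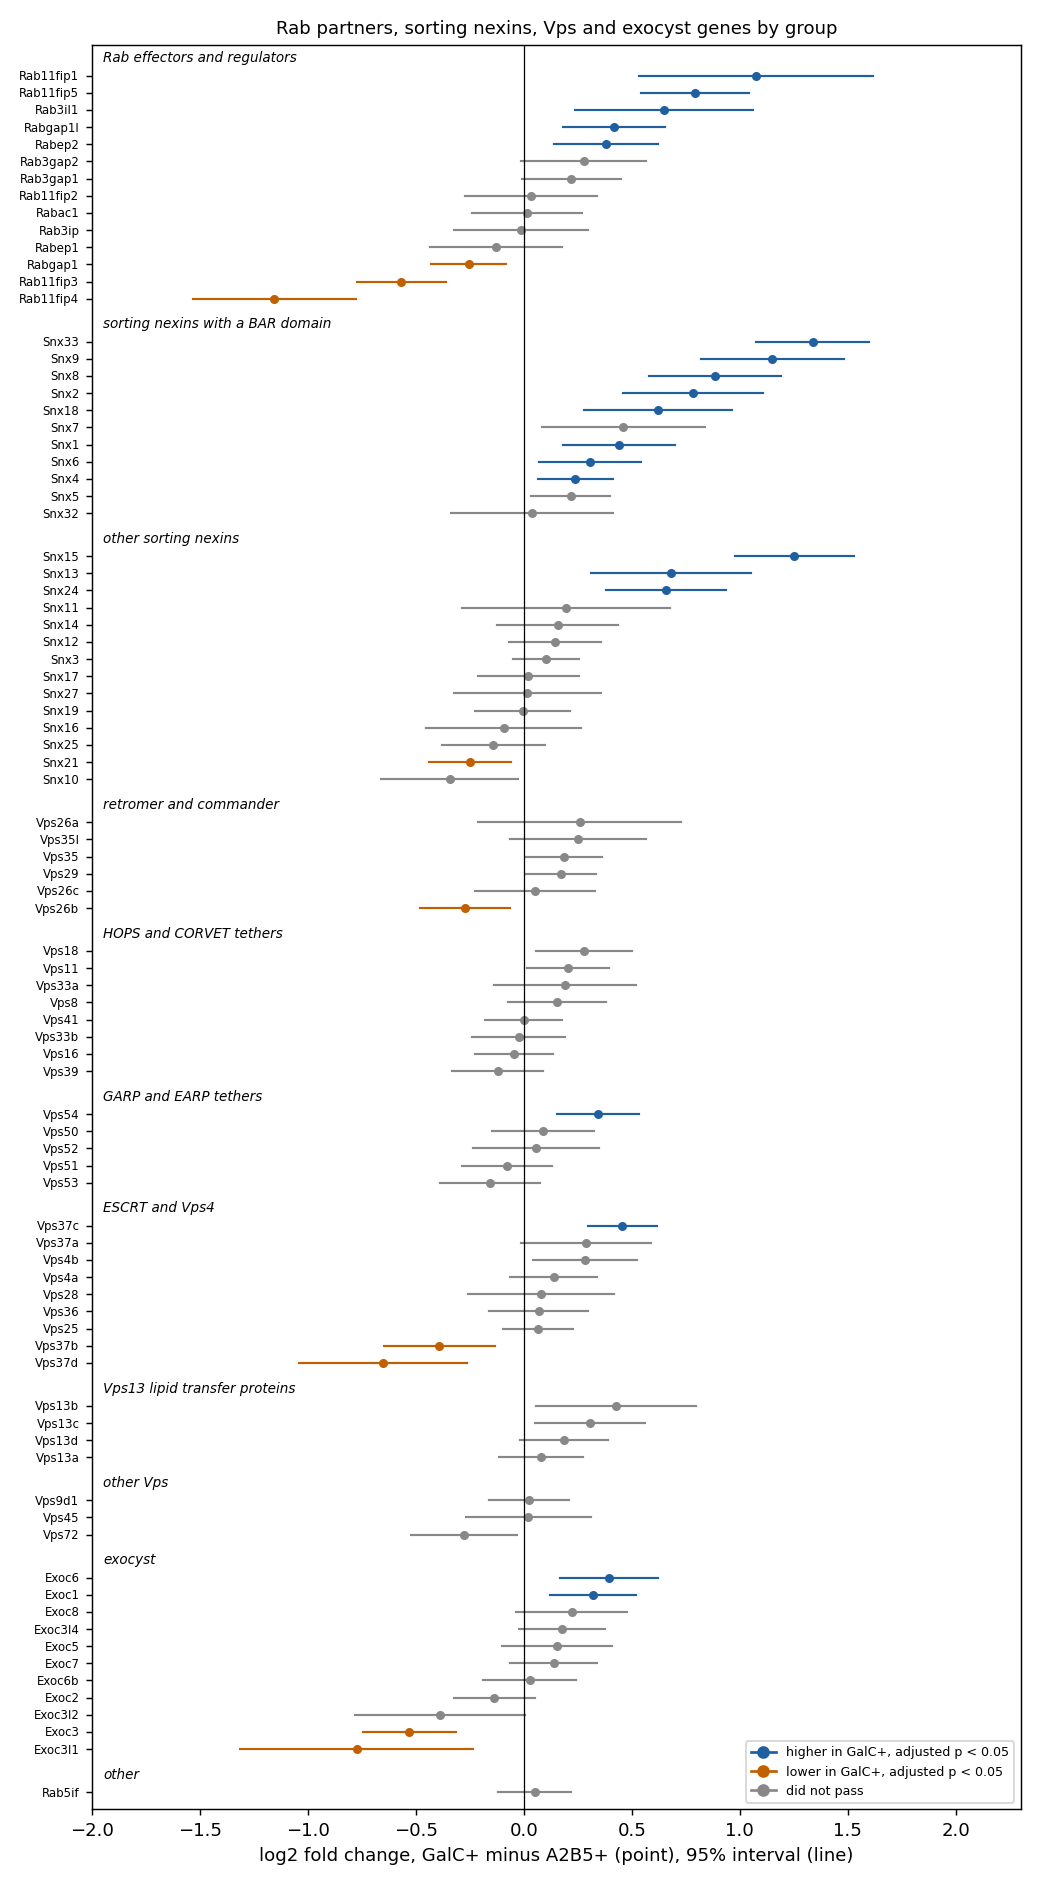
Log2 fold change (GalC+ minus A2B5+, horizontal axis) of the 86 partners, grouped by complex. Points are limma estimates from 4 and 4 arrays, and bars are 95% intervals. Blue genes were higher and orange genes lower in GalC+ past the threshold, and grey genes did not pass. Sorting nexins with a BAR domain lie to the right of zero, from 0.04 to 1.34, and the genes named Exoc span zero, from -0.77 (Exoc3l1) to 0.39 (Exoc6).

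Sorting nexins bind phosphoinositides on endosomes through a PX domain, and those with a BAR domain also bend the membrane into tubules. Of 25 sorting nexins, 11 rose and 1 fell, with a median of 0.22. Among the 11 with a BAR domain, 8 rose and 0 fell, where 18.2% of all genes rose and 17.5% fell. Snx4 and Snx6 among the 8 were close to the threshold. The median was 0.46, and the populations did not overlap in 9, against 36.2% of all genes. Snx33, which binds dynamin and acts in endocytosis, had the largest rise among the partners, with ratios of 0.593, 0.601, 0.631 and 0.658 in A2B5+ and 1.34, 1.80, 1.81 and 1.38 in GalC+. The populations were far apart (2.53-fold, 1.34 ± 0.12 SE, adjusted p = 4.35e-05).

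Its relative Snx9, which joins dynamin and actin assembly at clathrin-coated pits, read 0.759, 0.595, 0.8 and 0.563 in A2B5+ and 1.55, 1.51, 1.76 and 1.2 in GalC+. The populations were apart, with GalC+ replicate 4 the lowest of its group. Snx9 was 2.22-fold higher (1.15 ± 0.15 SE, adjusted p = 3.93e-04), and Snx18, the remaining member of this subfamily, was 1.54-fold higher (0.62 ± 0.15 SE, adjusted p = 0.0108), with an average of 0.33 over its 4 probe sets. Snx8, which acts between endosomes and the Golgi, rose by 0.88 (± 0.14 SE, adjusted p = 9.51e-04), and its second probe set by 0.73.

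Sorting nexins that work with retromer in returning receptors from endosomes to the Golgi divided at the threshold. Snx2 (0.78 ± 0.15 SE, adjusted p = 0.00244), Snx1 (0.44 ± 0.12 SE, adjusted p = 0.0145) and Snx6 (0.31 ± 0.11 SE, adjusted p = 0.0472) rose, while Snx5 (0.22, adjusted p = 0.0633) and Snx32 (0.04, adjusted p = 0.880) did not pass. Snx4, which acts in recycling, rose by 0.24 (adjusted p = 0.0357), but its adjusted p was 0.0600 with the replicate number as a block, and Snx4 and Snx6 each missed the threshold in 6 of 8 fits with 1 array removed. Snx7 did not pass (0.46, adjusted p = 0.0583), except with the replicate number as a block (0.0417).

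Of the 14 other sorting nexins, 3 rose and 1 fell (21.4% and 7.14%, against 18.2% and 17.5% of all genes), with a median of 0.06. Snx15, a sorting nexin of endosomes, read 0.631, 0.626, 0.726 and 0.671 in A2B5+ and 1.27, 1.83, 1.79 and 1.50 in GalC+. The populations were far apart, at 2.38-fold (1.25 ± 0.12 SE, adjusted p = 8.42e-05). Snx13, which also carries a domain that regulates G proteins, was 1.61-fold higher (0.68 ± 0.17 SE, adjusted p = 0.00986), and Snx24 was 1.58-fold higher (0.66 ± 0.12 SE, adjusted p = 0.00266). Snx21 was the member that fell (-0.25 ± 0.08 SE, adjusted p = 0.0438). Snx27, which returns receptors to the surface with retromer, did not pass (0.02, 95% interval -0.32 to 0.36).

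The Rab11 family interacting proteins, which link recycling endosomes to motors, were split by class. Rab11fip1 and Rab11fip5, which carry a C2 domain that binds phospholipids, rose, and Rab11fip3 and Rab11fip4, which carry EF hands and act in cell division, fell. Rab11fip2, also of the first class, did not pass (0.03, 95% interval -0.27 to 0.34). Rab11fip1 read 0.768, 0.742, 0.958 and 0.589 in A2B5+ and 1.56, 1.55, 2.52 and 1.04 in GalC+. The highest A2B5+ array, replicate 3, came close to GalC+ replicate 4, without overlap. Rab11fip1 was 2.11-fold higher (1.08 ± 0.24 SE, adjusted p = 0.00689), and its other probe set showed 0.23. Rab11fip5 was 1.73-fold higher (0.79 ± 0.11 SE, adjusted p = 6.22e-04).

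Rab11fip4 had the largest fall among the partners, with ratios of 1.28, 1.57, 1.19 and 1.52 in A2B5+ and 0.669, 0.455, 0.600 and 0.810 in GalC+. The populations were well apart, at 2.23-fold (-1.16 ± 0.17 SE, adjusted p = 7.05e-04). Rab11fip3 read 1.17, 1.41, 1.12 and 1.25 in A2B5+ and 0.883, 0.787, 0.803 and 0.856 in GalC+. They were apart here too, by a smaller and more even step (1.48-fold, -0.57 ± 0.09 SE, adjusted p = 0.00125). Rab11fip3, Rab11fip4 and Rab11fip5 each have 1 probe set.

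**Figure D4:**
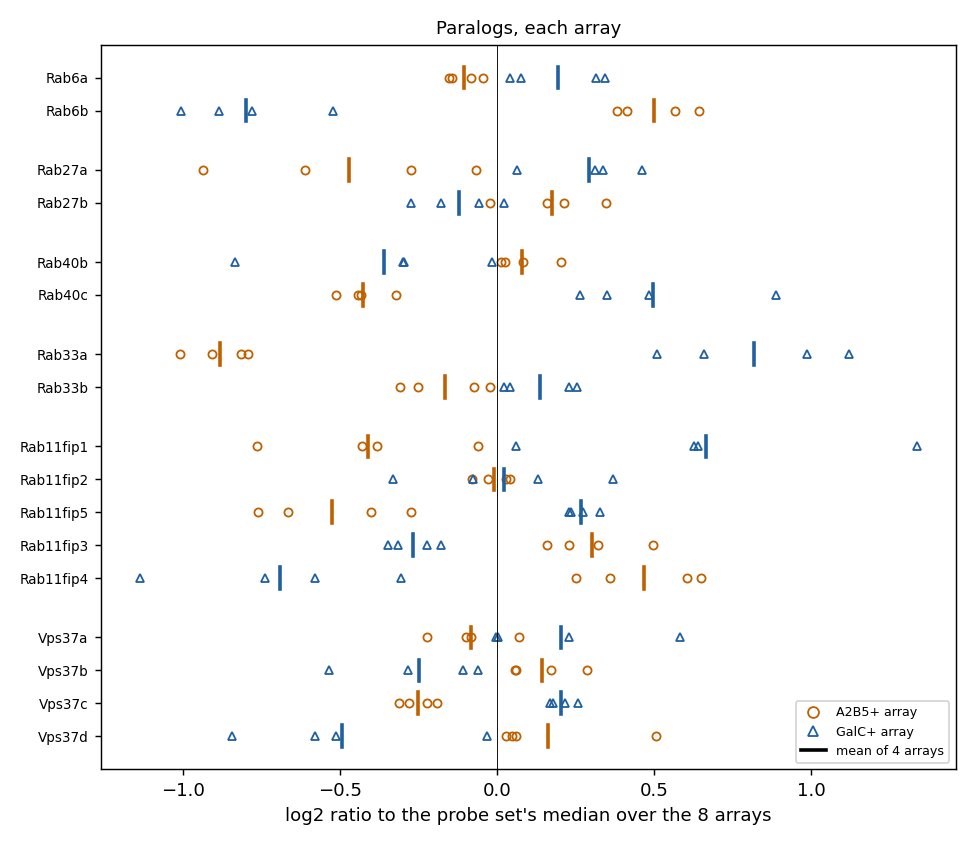
Log2 ratio on each array (horizontal axis) for members of 6 small families; circles are A2B5+ arrays, triangles are GalC+ arrays and bars are means of 4 arrays. Rab6b, Rab11fip3 and Rab11fip4 have their A2B5+ arrays on the right, whereas Rab6a, Rab33a, Rab40c, Rab11fip1 and Rab11fip5 have their GalC+ arrays there.

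Of the 14 effectors and regulators named after a Rab, Rab11 family interacting proteins included, 5 rose and 3 fell. These are 35.7% and 21.4%, against 18.2% and 17.5% of all genes. Rab3il1, an exchange factor, was 1.57-fold higher (0.65 ± 0.18 SE, adjusted p = 0.0210), and missed the threshold in 4 of 8 fits with 1 array removed. Rabgap1l, a GTPase-activating protein, rose (0.42 ± 0.11 SE, adjusted p = 0.0122), and so did Rabep2, a relative of the Rab5 effector Rabep1 (0.38 ± 0.11 SE, adjusted p = 0.0211). Rabep1 itself did not pass (-0.13, 95% interval -0.44 to 0.17). Rabgap1 fell by 0.26 on the log2 scale (adjusted p = 0.0287), in 1 of its 3 probe sets, and its adjusted p was 0.0523 with the replicate number as a block.

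The Vps genes, which sort cargo to and from lysosomes, passed in 5 of 35 cases (14.3%), below the 35.7% of all genes, with 2 higher and 3 lower and a median of 0.08. Of genes listed with the homotypic fusion and tethering complexes HOPS and CORVET, Vps33b among them, 0 of 8 passed by limma. The largest difference was that of Vps18 (0.28, adjusted p = 0.0538). It passed with the mean of its 2 probe sets (adjusted p = 0.0315). Retromer and commander subunits had 0 of 6 higher and 1 lower, Vps26b (-0.27 ± 0.09 SE, adjusted p = 0.0436). Of the core of retromer, Vps35 (0.19, 95% interval 0.01 to 0.36) and Vps29 (0.17, interval 0.01 to 0.33) did not pass after adjustment (adjusted p = 0.0918 and 0.0924).

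The GARP and EARP tethers, which receive vesicles at the Golgi or at endosomes, had 1 of 5 higher, near the 18.2% of all genes. It was Vps54 (0.34 ± 0.08 SE, adjusted p = 0.0108). None of the 4 lipid transfer proteins of the Vps13 family passed; Vps13b had the largest value (0.43, adjusted p = 0.0711, or 0.0253 with the replicate number as a block). The other Vps genes had none of 3, with Vps72, which by function belongs to chromatin remodelling and not to traffic, at -0.28 (adjusted p = 0.0753).

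ESCRT complexes, which sort ubiquitinated cargo into multivesicular bodies, had 1 of 9 members higher and 2 lower. The 33.3% that passed was near the 35.7% of all genes. All 3 were versions of the same ESCRT-I subunit. Vps37c rose (1.37-fold, 0.46 ± 0.07 SE, adjusted p = 0.00101), and Vps37d and Vps37b fell. Vps37d read 1.02, 1.42, 1.03 and 1.04 in A2B5+ and 0.701, 0.669, 0.557 and 0.979 in GalC+. The populations did not overlap, although GalC+ replicate 4 lay close to the lower 3 A2B5+ arrays and A2B5+ replicate 2 stood far above them (1.57-fold, -0.65 ± 0.17 SE, adjusted p = 0.0153). Vps37b (-0.39 ± 0.12 SE, adjusted p = 0.0243) fell in 1 of 3 probe sets, the others showing -0.04 and 0.07. Vps37a did not pass (0.29, adjusted p = 0.128), nor did the ATPases Vps4a (0.14) and Vps4b (0.28).

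The exocyst tethers secretory vesicles to the plasma membrane. Of 11 genes named Exoc, relatives of Exoc3 such as Exoc3l1 included, 2 were higher and 2 lower (median 0.14). These are 18.2% and 18.2%, against 18.2% and 17.5% of all genes. Exoc6, the subunit that binds Rab8 and Rab11 (0.39 ± 0.10 SE, adjusted p = 0.0130), and Exoc1 (0.32 ± 0.09 SE, adjusted p = 0.0181) rose. Exoc3 fell by 0.53 on the log2 scale (± 0.10 SE, adjusted p = 0.00216), but only 1 of its 4 probe sets passed, and the others showed -0.09, -0.09 and -0.16. Its relative Exoc3l1 read 1.26, 0.969, 1.49 and 1.21 in A2B5+ and 1.03, 0.447, 0.633 and 0.879 in GalC+. A2B5+ replicate 2 was below GalC+ replicate 1, so that the populations overlapped (1.71-fold, -0.77 ± 0.24 SE, adjusted p = 0.0306). Exoc2 (-0.14), Exoc5 (0.15), Exoc7 (0.14) and Exoc8 (0.22) did not pass.

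The cycle of Rab GTPases also runs on genes with other names, which were listed by role: exchange factors, GTPase-activating proteins, further effectors, ESCRT subunits and the factors that prenylate Rab GTPases or extract them from membranes. Of these 120 genes, 40 rose and 8 fell (33.3% and 6.67%, against 18.2% and 17.5% of all genes), with a median of 0.14. The list was made with earlier results of these data known, so that these shares are not an independent test. Sytl2, an effector of Rab27 that docks vesicles at the plasma membrane, read 0.285, 0.240, 0.315 and 0.342 in A2B5+ and 1.68, 2.09, 2.00 and 1.66 in GalC+. The populations were far apart, and its rise was larger than that of any Rab GTPase (6.31-fold, 2.66 ± 0.13 SE, adjusted p = 2.06e-06). Beside it Rab27a rose by 0.77 and Rab27b fell by 0.30 on the log2 scale.

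Among 29 GTPase-activating proteins 14 rose and 3 fell (58.6% passed, against 35.7% of all genes). Tbc1d4, which acts on Rab8, Rab10 and Rab14 in the delivery of the glucose transporter, rose most (3.01-fold, 1.59 ± 0.15 SE, adjusted p = 6.30e-05), with 1.03 in its second probe set. Sgsm1 fell most (1.71-fold, -0.78 ± 0.17 SE, adjusted p = 0.00522). The 28 exchange factors had 8 higher, led by Dennd1c, of the DENN family that activates Rab35 (2.34-fold, 1.23 ± 0.15 SE, adjusted p = 2.63e-04), and 2 lower, of which Als2cl fell more (-0.93 ± 0.14 SE, adjusted p = 9.48e-04; its other probe set showed 0.11). Of 39 further effectors, 12 rose and 2 fell; Ehbp1, which joins Rab8 and Rab10 to actin, fell most (-0.78 ± 0.12 SE, adjusted p = 8.57e-04). Of 20 further ESCRT genes 6 rose, Chmp4c most (0.91 ± 0.13 SE, adjusted p = 6.52e-04), and Chmp7 fell (-0.36 ± 0.09 SE, adjusted p = 0.0119). The shares that passed, 35.7% of exchange factors, 35.9% of further effectors and 35.0% of further ESCRT genes, were near the 35.7% of all genes. In the same order 28.6%, 30.8% and 30.0% rose, against 18.2% of all genes. Smaller shares of each fell than the 17.5% of all genes. None of the 4 prenylation and extraction genes passed; the largest value was that of Gdi2 (0.45, 95% interval -0.23 to 1.13).

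The GalC+ arrays did not differ equally from the A2B5+ arrays. The mean log2 ratio of the 56 Rab GTPases was -0.10 to -0.04 on the A2B5+ arrays and -0.03, 0.18, 0.26 and 0.00 on GalC+ arrays 1 to 4. The partners had means of -0.09 to -0.05, and of 0.01, 0.16, 0.17 and -0.01. GalC+ replicates 2 and 3 were the high arrays in both. Of the 17 Rab GTPases that rose, the highest GalC+ value was in replicate 3 for 10 and in replicate 2 for 6, and of the 20 risen partners it was in replicate 2 for 10 and in replicate 3 for 8. The same arrays were the extreme ones for the marker lists: myelin markers had means of 1.01, 1.62, 1.87 and 0.86 on GalC+ arrays 1 to 4, neuron markers -0.66, -1.07, -1.23 and -0.41, and macrophage markers 0.36, 0.59, 0.65 and 0.15. Mural cell markers had 0.83, 0.75, 0.99 and 0.31. The part of any of these cells in the values of the members was not tested.

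**Figure D5:**
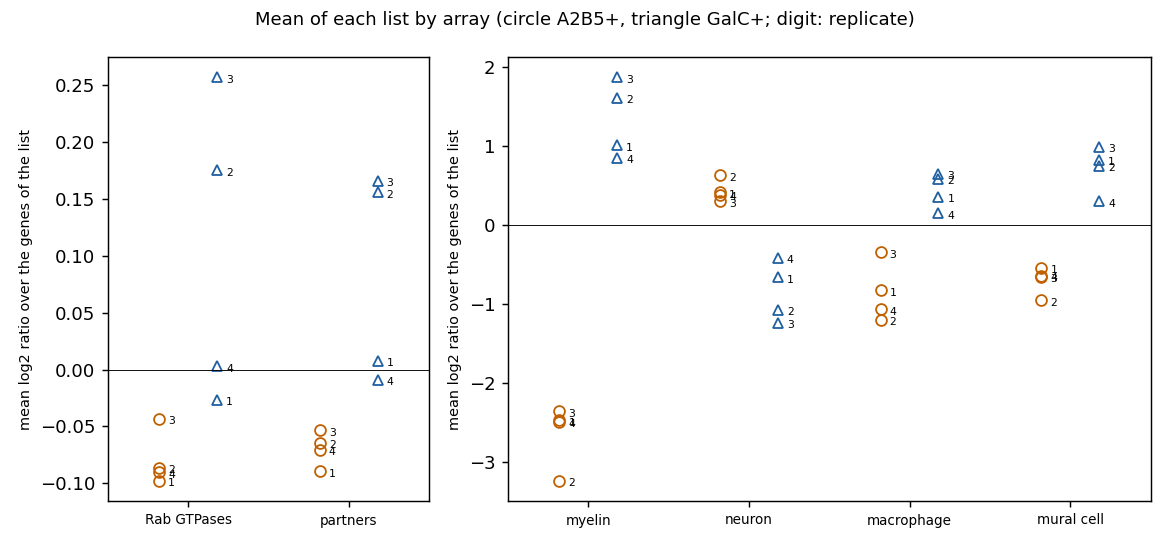
Mean log2 ratio on each of the 8 arrays (vertical axis) for the 56 Rab GTPases, the 86 partners and the myelin, neuron, macrophage and mural cell markers. The Rab GTPases stand at 0.18 and 0.26 on GalC+ replicates 2 and 3. On these arrays myelin and macrophage markers are highest and neuron markers lowest.

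Calls differed in how they held when each array was left out in turn. Of the 17 Rab GTPases that rose, 13 passed in all 8 of those fits, and of the 7 that fell, 4 did (Rab6b, Rab15, Rab3c and Rab26). For Rab6b the log2 fold change lay between -1.39 and -1.23, and for Rab33a between 1.60 and 1.80. The Rab GTPases that lost their call in at least 1 fit were Rab10, Rab21, Rab33b and Rab6a among the risen and Rab3b, Rab27b and Rab40b among the fallen; among these 3, 4 to 7 of the 8 fits did not pass. Of the partners, 15 of 20 that rose and 4 of 9 that fell passed in all 8. Without A2B5+ replicate 3, and likewise without GalC+ replicate 2, 4 Rab GTPases were called lower instead of 7. A Welch statistic, which takes the spread from each gene alone, called 8 Rab GTPases higher, namely Rab33a, Rab37, Rab32, Rab40c, Rab4b, Rab14, Rab38 and Rab11a, and 4 lower, namely Rab6b, Rab15, Rab3c and Rab26. Rab7b, Rab27a, Rab8b, Rab4a and Rab7a were among those it did not call, as were the partners Rab11fip1, Snx1, Snx13, Snx18, Vps37d and Exoc3l1.

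Where a gene had several probe sets, the most variable was read. Of the 142 members 59 had several, and in 42 of these the probe set read also had the largest difference; in the other 17, Rab5a, Rab30 and Rabep1 among them, another had a larger one. With p adjusted over all 31042 probe sets instead of over genes, all probe sets gave the same call in 40, some passed and some did not in 19, and in 0 were any called in opposite directions. Among the 19, the probe set of Rab30 that was not read was called lower (-0.32), whereas the one read (0.20) was not called. For Rab20, 1 of 3 probe sets was called higher. By that adjustment neither probe set of Rab27b or of Rab40b was called, so that both count among the 40. With the mean of the probe sets, Rab6a, Rab11a, Rab27b and Rab40b among the Rab GTPases did not pass (adjusted p = 0.0810, 0.0510, 0.0753 and 0.302), and partners called lower went from 9 to 5, with the fall of Exoc3, Rabgap1, Vps26b and Vps37b and the rise of Exoc1 missing the threshold. Rab24, Vps18 and Snx5 passed in that setting (adjusted p = 0.0393, 0.0315 and 0.0460).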

How the data were processed

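RNA of 8 sorted samples was read on single-colour Affymetrix arrays. RMA had been applied to the signals, per the submitters' processing notes (version not given in the sources used here). That the deposited values are ratios follows from the file itself, where each row has a median of 1 within 5e-04. Their log2 was analysed, with no pseudocount and no further normalisation; the median ratio per array was 0.979 to 1.03. Of 31099 rows, 57 were controls, and of the 31042 left 20826 carried 1 gene symbol, 436 several and 9780 none, per the platform annotation. Genes were read from single-symbol probe sets, taking for each gene the most variable of its probe sets. In all, 231 probe sets belonged to members, and 5 more carried a member's symbol with another and were left out. Of the 142 members, 140 had a gene ID in the RefSeq gene table (GRCr8), with the same symbol. No protein sequences were used here.

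The populations were compared by limma 3.58.1 under R 4.3.3, with eBayes after lmFit, two-sided tests, Benjamini-Hochberg adjustment over 14217 genes and a threshold of 0.05, and the fit was tested on simulated data. Each replicate was a pooled litter, so that p-values measure the spread between pools, litter and sort included. Whether A2B5+ and GalC+ arrays of the same number shared a litter is not stated. If they did, the fit without the replicate number as a block ignores a pairing. Deviations of same-numbered A2B5+ and GalC+ arrays from their group means correlated at 0.473, 0.116, 0.337 and 0.207 for replicates 1 to 4. Arrays of unlike number correlated at -0.256 to 0.125. The value of replicate 2 was below 0.125 (A2B5+ replicate 3 with GalC+ replicate 2) and 0.122 (A2B5+ replicate 2 with GalC+ replicate 4). By this measure numbers 1, 3 and 4 went together and number 2 did not stand out. No label states a pairing. The reported values come from the fit without the block, as planned, and values with the block are given where they change a call. Among the members it removed the calls of Rab21, Snx4 and Rabgap1 and added those of Rab20, Snx7, Snx10 and Vps13b. Alternatives were the replicate block, quantile normalization, median centring, a pseudocount of 0.1, the average of all probe sets of a gene, a spread estimated for each gene alone (Welch), a trended and robust prior, limma's treat against a fold of 1.2, and leaving out each array. No scan date or other batch was given. Members and lists were chosen with earlier results of these data known. The genes named were, among members past the threshold, the 10 largest rises and falls of Rab GTPases and of partners, and the largest rise and fall of each class, or its largest difference where none passed. Others are named to complete a count, a family or a paralog pair, or as the known core of a complex, and were chosen after their values were seen.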

Additional observations from a re-analysis of the deposited data

Results flagged for a closer look

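In 16 of 284 groups of 4 arrays (5.63%) the highest or lowest ratio stood apart from the other 3 arrays by Dixon's criterion, which chance alone meets in about 1 in 20 groups. Replicate 3 held several of these. Rab37 was high in replicate 3 of both populations, at 0.692 in A2B5+ and 2.982 in GalC+; without GalC+ replicate 3 it still rose. Rab32 stood high at 0.894 in A2B5+ replicate 3. On that array Rab11b was at 0.697 and Vps8 at 0.848. On GalC+ replicate 3, Rab30 was at 1.701, Vps13b at 1.703, Rab25 at 0.971 and Exoc6b at 0.954.

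A2B5+ replicate 2 stood apart for Exoc3 at 1.374, Vps37d at 1.421, Rab3a at 1.317 and Vps52 at 0.888. The rest were spread over other arrays: Vps45 at 1.173 in A2B5+ replicate 4, Vps72 at 0.834 in GalC+ replicate 1, and Vps8 at 1.249 in GalC+ replicate 2.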

How the results depend on the processing

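No member past the threshold changed direction under the alternatives tried; members near zero that did not pass could, such as Rab3a (-0.04) and Snx27 (-0.01) with all probe sets averaged. Over 848 values of genes named by rule, 744 kept their side of the threshold, 98 no longer passed and 6 newly passed. With a Welch statistic, 8 Rab GTPases were higher and 4 lower (17 and 7 in the reported test), and 5 partners were lower (9). Of the 20 risen partners 12 kept their call with it. Among the cycle genes with other names, 32 of 40 that rose and 6 of 8 that fell kept theirs. Against a fold of 1.2 with limma's treat, which asks for more than a difference from zero, 7 and 4 Rab GTPases passed, 8 and 2 partners (20 and 9), and 19 and 3 of the cycle genes with other names (40 and 8). Averaging all probe sets of a gene left 5 partners lower. Leaving out each array in turn gave 13 to 19 Rab GTPases higher and 4 to 7 lower, 16 to 24 partners higher and 5 to 9 lower, and 29 to 39 cycle genes higher and 6 to 10 lower. Partners lower were 5 without A2B5+ replicate 1, 2 or 4 and without GalC+ replicate 1 or 2. With the replicate block, 17 and 7 Rab GTPases, 21 and 9 partners and 41 and 8 cycle genes passed; of the risen genes 16, 19 and 37 were those called without it, and of the fallen 7, 8 and 8. Over all genes, calls went from 5079 to 5554 with the block, 5355 with quantile normalization, 3390 with the spread of each gene alone and 2206 with treat. Why the counts moved was not tested beyond what each alternative asks. Probe sets near background, whose differences are compressed, could not be set aside.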
